A study of Mus musculus with 3 samples.

Results

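The receptors for the constant (Fc) part of IgG were followed in visceral white adipose tissue (VWAT) of lean and obese mice together with their signalling chain and the kinase downstream of it. The set holds Fcgr1, Fcgr2b, Fcgr3 and Fcgr4, the common gamma chain Fcer1g, and Syk. The genes were matched by symbol with no cut on their signal, but they were chosen with earlier results of these data known. All 6 were found among the 10603 genes with a detected probe. The 3 groups were LFD-Vehicle (lean, low-fat diet), HFD-Vehicle (obese, high-fat diet) and HFD-Rapamycin (obese by its label, high-fat diet and weekly rapamycin, an inhibitor of the kinase mTOR). All were C57BL/6JRj mice with a labelled age of 28 weeks, and none carried a genetic change. By the study's methods the high-fat diet drew 60% of its energy from fat, and rapamycin was injected at 2 mg/kg for 22 weeks. HFD-Vehicle mice were injected weekly with the vehicle solution over the same 22 weeks. No injection period is labelled for LFD-Vehicle, so a difference in injection cannot be told apart from diet between LFD-Vehicle and HFD-Vehicle. RNA of 5 mice was pooled per group for 1 Illumina mouse bead array. The study's text calls the control diet regular chow, begins at 6 weeks of age with 5 weeks of diet before the injections, and used both sexes, whose share in each pool is not given in the sources used here. One array per group leaves no replicate, so no test was possible and no p-value between groups is given.

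Fc gamma receptors join antibodies to cells. When IgG complexes draw the activating receptors Fcgr1, Fcgr3 and Fcgr4 together, Src family kinases phosphorylate the activation motif (ITAM) of Fcer1g, the chain these receptors need for surface expression and signalling, and Syk docks there and starts phagocytosis, the oxidative burst and cytokine release. Fcgr2b is the inhibitory receptor of the family. It carries an inhibitory motif (ITIM) in its own tail and recruits the phosphatase SHIP-1, the product of Inpp5d. In fat these genes are known from macrophages above all, while NK cells carry Fcgr3, B cells Fcgr2b, neutrophils and monocytes Fcgr4, and mast cells Fcgr2b, Fcgr3 and Fcer1g.

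Of the 6 genes, 4 are neighbours on mouse chromosome 1, in the order Fcgr2b, Fcgr4, Fcgr3 and Fcer1g, with 7 other protein-coding genes between the first and the last. Fcgr1 is on chromosome 3 and Syk on chromosome 13. As a description, with no link to the array values tested, the sequences just before the start sites of the 4 receptor genes are shown. They are the 250 bases before the annotated start in RefSeq (build GRCm38.p6), read 5′ to 3′ on the strand of the gene, and capitals mark GAGGAA, a core letter string bound by the myeloid factor PU.1, here on the opposite strand as TTCCTC.
Fcgr1 (chr3:96293970-96294219, minus strand): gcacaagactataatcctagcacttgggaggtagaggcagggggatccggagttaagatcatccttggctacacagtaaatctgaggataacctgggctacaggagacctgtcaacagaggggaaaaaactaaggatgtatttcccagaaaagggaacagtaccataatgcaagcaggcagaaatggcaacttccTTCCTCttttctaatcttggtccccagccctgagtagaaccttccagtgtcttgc
Fcgr3 (chr1:171059404-171059653, minus strand): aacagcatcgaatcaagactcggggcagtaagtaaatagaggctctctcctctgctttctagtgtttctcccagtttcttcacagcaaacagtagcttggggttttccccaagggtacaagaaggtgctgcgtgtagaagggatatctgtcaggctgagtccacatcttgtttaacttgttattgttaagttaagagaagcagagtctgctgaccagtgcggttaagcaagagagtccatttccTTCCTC
Fcgr4 (chr1:171018676-171018925, plus strand): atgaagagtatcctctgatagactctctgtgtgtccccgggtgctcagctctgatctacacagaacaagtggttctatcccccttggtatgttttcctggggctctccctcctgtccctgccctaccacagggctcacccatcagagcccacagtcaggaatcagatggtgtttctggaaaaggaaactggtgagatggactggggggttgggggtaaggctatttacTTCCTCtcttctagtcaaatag
Fcgr2b (chr1:170976072-170976321, minus strand): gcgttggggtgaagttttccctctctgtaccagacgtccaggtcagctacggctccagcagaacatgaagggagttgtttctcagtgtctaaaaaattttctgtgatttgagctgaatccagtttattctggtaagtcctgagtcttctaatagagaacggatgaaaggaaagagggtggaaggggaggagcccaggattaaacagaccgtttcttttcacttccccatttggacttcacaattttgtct

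The 3 activating receptors each held 1 GAGGAA in this window and Fcgr2b held 0. The Fcgr2b window does hold the shorter string GGAA, the end of GAGGAA. Its count of 0 is thus for the longer string only and does not set Fcgr2b apart in the binding of PU.1. Counting either strand, GAGGAA is found in 23.3% of 32851 such windows, so a match is common. Fcer1g held 0 in its window, and of the 2 annotated starts of Syk the second held 1 GAGGAA. They are letter matches in a chosen window, picked after the sequences had been seen, and nothing about the binding of a factor follows from them. Spi1, the gene of PU.1, had normalized log2 signals of 5.97, 7.41 and 7.99 on the LFD-Vehicle, HFD-Vehicle and HFD-Rapamycin arrays.

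The depth of an array is given here by the share of its 45281 probes with a detection p under 0.01 against the array's own negative controls, which was 37.4% (LFD-Vehicle), 38.8% (HFD-Vehicle) and 39.7% (HFD-Rapamycin). Signals were background-corrected, quantile normalized and put on the log2 scale, and the brightest detected probe stood for a gene. Differences below are between normalized log2 values, and folds are their antilogs. The only error the arrays allow is the spread between different probes of a gene, taken over 3941 genes with several detected probes. This SD of a log2 difference was 0.32 for HFD-Vehicle minus LFD-Vehicle, 0.21 for HFD-Rapamycin minus HFD-Vehicle and 0.38 for HFD-Rapamycin minus LFD-Vehicle. It leaves out differences between mice, and errors that all probes of an array share, such as those of labelling and hybridization. It also depends on brightness. For the 976 genes with several bright probes it was 0.22, 0.15 and 0.28 in the same order. Signals of different probes are not set against each other, because a probe's brightness also depends on its sequence.

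Among the activating receptors, Fcgr4 stood furthest apart between the diets. Its raw signal was 206.0 on the LFD-Vehicle array, 1471.3 on the HFD-Vehicle array and 1909.3 on the HFD-Rapamycin array, or 7.25, 10.32 and 10.86 as normalized log2 values. The lean tissue thus had the low value and both high-fat diet arrays the high ones. HFD-Vehicle was 8.38-fold above LFD-Vehicle (log2 difference 3.07), and only 36 of the 10603 genes had a larger difference. HFD-Rapamycin was 1.45-fold above HFD-Vehicle (0.54), just short of the 1.5-fold used for counting. Fcgr4 binds the mouse subclasses IgG2a and IgG2b, and is carried by monocytes, macrophages and neutrophils.

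Fcgr3, the low-affinity activating receptor that most mouse leukocytes of the myeloid and NK lines carry, had raw signals of 479.1 (LFD-Vehicle), 2110.0 (HFD-Vehicle) and 3087.0 (HFD-Rapamycin), or 8.82, 10.85 and 11.59 as normalized log2 values. It was 4.10-fold higher in HFD-Vehicle than in LFD-Vehicle (log2 difference 2.04). A further 1.66-fold (0.73) separated HFD-Rapamycin from HFD-Vehicle, which made 6.83-fold between HFD-Rapamycin and the lean array. The step between the diets was the larger one, as for Fcgr4.

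Fcgr1, the high-affinity receptor that can hold IgG without an antigen, had a dim probe, with raw signals of 141.4 (LFD-Vehicle), 353.5 (HFD-Vehicle) and 473.6 (HFD-Rapamycin). As normalized log2 values these were 6.32, 7.94 and 8.65. HFD-Vehicle was 3.07-fold above LFD-Vehicle (log2 difference 1.62) and HFD-Rapamycin 1.63-fold above HFD-Vehicle (0.71). Because the lean signal lay near the background, the first of these depended on how background was treated and ranged from 1.03 to 1.85 over the alternatives.

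Fcgr2b, the inhibitory receptor, moved least between the diets. Its brightest probe gave raw signals of 887.0 (LFD-Vehicle), 1464.8 (HFD-Vehicle) and 1966.6 (HFD-Rapamycin), or normalized log2 values of 9.80, 10.30 and 10.90. The lean array was the lowest here too, but HFD-Vehicle was 1.42-fold above it (log2 difference 0.51) and 1840 genes had a larger difference. HFD-Rapamycin was 1.51-fold above HFD-Vehicle (0.60), so the 2 steps were of about the same size. Fcgr2b was the one gene of the set with several probes, 5 in all, of which 3 were detected on at least 1 array. The second of these had normalized log2 values of 7.74, 8.36 and 8.95, with differences of 0.62 (HFD-Vehicle minus LFD-Vehicle) and 0.58 (HFD-Rapamycin minus HFD-Vehicle). Another was detected on the HFD-Rapamycin array only, near the detection limit (5.18, 5.31 and 5.51). The bright pair thus gave like differences, and which of the 2 steps passed 1.5-fold depended on the probe. Fcgr2b and Fcgr3 share much of their extracellular sequence, and how far each probe reads the other transcript was not tested, since probe sequences were not used here.

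Fcer1g, the chain that the 3 activating receptors and several other leukocyte receptors share, had raw signals of 2777.5 (LFD-Vehicle), 10013.0 (HFD-Vehicle) and 13856.3 (HFD-Rapamycin). The normalized log2 values were 11.53, 13.20 and 13.70. It was 3.18-fold higher in HFD-Vehicle than in LFD-Vehicle (log2 difference 1.67), close to Fcgr1, and 1.41-fold higher in HFD-Rapamycin than in HFD-Vehicle (0.50). That was the smallest value of the set in the rapamycin comparison.

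Syk was read by a dim probe. Its raw signals were 99.2 (LFD-Vehicle), 186.0 (HFD-Vehicle) and 249.1 (HFD-Rapamycin), and it was not detected on the LFD-Vehicle array (detection p 0.0353), so its lean level is only known to be low. Against the lowest detected signal of that array, and with the background correction used here, HFD-Vehicle was at least 2.13-fold and HFD-Rapamycin at least 3.86-fold higher. These bounds do not hold under every processing, and without background correction the log2 differences were 0.67 and 1.20. The normalized log2 values were 5.0, 6.57 and 7.43, which gives nominal differences of 1.57 and 2.43 against LFD-Vehicle. Between the 2 high-fat diet arrays, both with a detected signal, Syk was 1.81-fold higher in HFD-Rapamycin (0.86), the largest value of the set in that comparison, and 317 of 10603 genes had a larger one. Without background correction this last difference was 0.54.

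**Figure D1:**
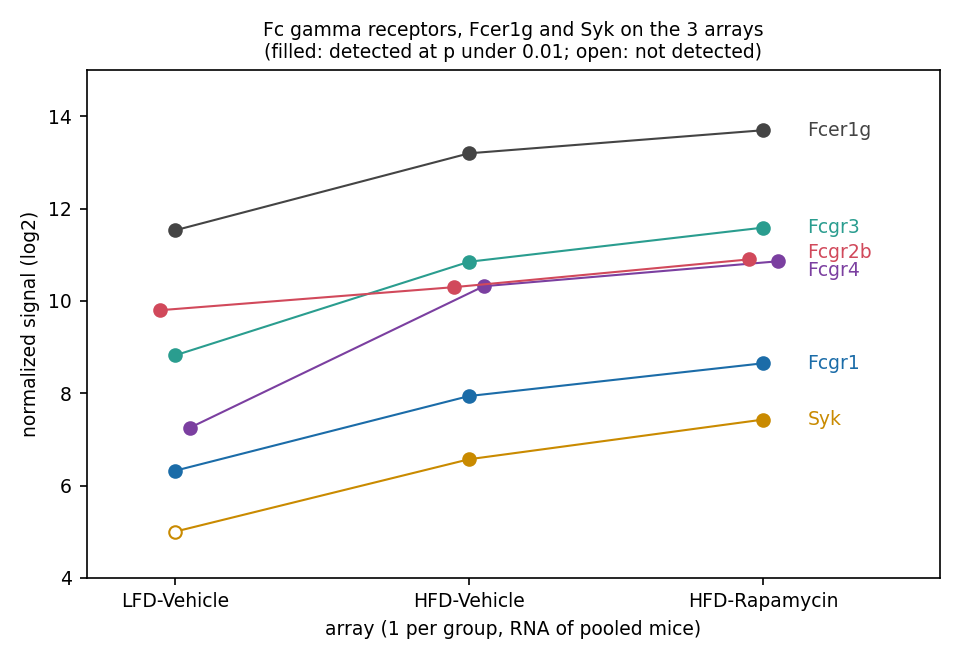
Normalized log2 signal of the 6 genes (vertical axis) on the LFD-Vehicle, HFD-Vehicle and HFD-Rapamycin arrays (horizontal axis), 1 point per gene and array, filled where detected and open where not. Each line climbs from left to right, Fcgr4 from 7.25 to 10.86 and Fcgr2b from 9.80 to 10.90, and only Syk on the LFD-Vehicle array is open. Heights of different genes come from different probes and are not comparable.

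The first comparison asks how obese tissue differed from lean tissue without the drug. Of the 6 genes, 5 were at least 1.5-fold higher in HFD-Vehicle than in LFD-Vehicle and none was lower, while 15.1% of all genes were higher and 11.7% lower by that much. The same 5 genes were at least 2-fold higher under the reported processing, against 7.28% of all genes, and none was lower, against 3.88%. The exception was Fcgr2b. The median difference was 1.64 over the 6 genes and -0.05 over all genes. Fcgr4 came first and Fcgr3 next, and Fcer1g and Fcgr1 lay closer to each other than the SD of 0.45 that applies to the difference of 2 probes, so their order carries no weight. Syk, with a bound of 1.09 and a nominal difference of 1.57, has no settled place in the order. Scaling the arrays to a common median in place of quantile normalization moved the median of all genes to 0.15 and the shares to 21.7% higher and 6.57% lower, and Fcgr2b then also passed (6 of 6).

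The gap between the activating receptors and the inhibitory one was the main difference within the set. Relative to Fcgr2b, the difference between HFD-Vehicle and LFD-Vehicle was larger by 1.11 for Fcgr1, 1.53 for Fcgr3 and 2.56 for Fcgr4, all on the log2 scale and all beyond the SD of 0.45. Put as a ratio of activating to inhibitory signal, this is a 2.16-fold, 2.89-fold and 5.90-fold shift towards the activating receptor. The gap of Fcgr1 depended on how background was treated. Without background correction its difference was 1.04 beside 0.47 for Fcgr2b, and with the authors' processed values 1.03 beside 0.48, a smaller gap than reported. Between HFD-Rapamycin and HFD-Vehicle the same quantities were 0.11, 0.13 and -0.06, all within the SD of 0.30 for that comparison. The ratio gained with the diet was therefore nearly the same on both high-fat diet arrays. The shift in this ratio was not set against a replicate, since there is none.

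The second comparison asks how tissue of rapamycin-treated mice differed on the same diet. Of the 6 genes, 4 were at least 1.5-fold higher in HFD-Rapamycin than in HFD-Vehicle (Fcgr1, Fcgr2b, Fcgr3 and Syk), beside 8.55% of all genes, and none was lower, beside 7.56%. None reached 2-fold in either direction, which 1.56% of all genes did upwards and 2.13% downwards. The median was 0.65 over the 6 genes and 0.02 over all. The 6 differences lay between 0.50 and 0.86, so neighbours in their order differed by less than the SD of 0.30, and Fcer1g and Fcgr4 missed 1.5-fold narrowly. The count depended on the processing. It was 1 without background correction (Fcgr3), beside 4.23% of all genes, and 1 with the authors' own processed values, beside 4.27%. With median scaling it was 2, and 5.99% of all genes were higher, 10.7% lower and the median of all genes was -0.09. No alternative gave a lower value in HFD-Rapamycin for any of the 6.

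Against the lean array, HFD-Rapamycin was at least 1.5-fold higher for 6 of 6 genes, beside 20.5% of all genes. The 6 were also at least 2-fold higher, beside 11.7% of all genes. None was lower, beside 19.5% at 1.5-fold and 8.23% at 2-fold. All 6 had the order LFD-Vehicle, HFD-Vehicle, HFD-Rapamycin from low to high, an order that 28.5% of the 10603 genes share. Of the whole log2 distance from LFD-Vehicle to HFD-Rapamycin, the share already present in HFD-Vehicle was 85.0% for Fcgr4, 77.0% for Fcer1g, 73.5% for Fcgr3, 69.6% for Fcgr1, 64.6% for Syk, at its undetected lean value, and 45.9% for Fcgr2b. Both steps use the HFD-Vehicle array, so a chance shift of that array would move them in opposite directions.

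Cell types that carry these receptors were followed by their markers. VWAT is a mix of cells, and on bulk arrays more cells of a type and more RNA per cell cannot be told apart. Of 22 measured macrophage markers, 16 had at least 1.5-fold more signal in HFD-Vehicle than in LFD-Vehicle and 1 had less (median 1.32). Beside them, 15.1% of all genes were higher and 11.7% lower. In HFD-Rapamycin against HFD-Vehicle 9 were higher and none lower (median 0.51), beside 8.55% and 7.56% of all genes. Their summed normalized signal was 24897 (LFD-Vehicle), 65168 (HFD-Vehicle) and 91805 (HFD-Rapamycin). Adgre1, the gene of a surface antigen much used to mark mouse macrophages, had log2 values of 9.81, 12.17 and 12.61. Cd163, a haemoglobin scavenger receptor of resident macrophages, ran the other way, with 9.77, 8.87 and 8.56. Both were picked after their values had been seen.

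Set against the median of those markers, the members split. In HFD-Vehicle minus LFD-Vehicle, Fcgr4 exceeded the marker median by 1.74 on the log2 scale and Fcgr3 by 0.71. Fcer1g exceeded it by 0.35 and Fcgr1 by 0.30, values near the SD of 0.32, and each was above 18 of the 22 markers. Syk has only a bound in this comparison (1.09), which lies below the marker median, so its place among the markers is not given. Fcgr2b lay below it, at -0.82, and 17 of 22 markers had a larger difference. In HFD-Rapamycin minus HFD-Vehicle, where Syk was detected on both arrays, all 6 genes were within -0.01 and 0.35 of the marker median, with Fcer1g lowest and Syk highest. The part of macrophage number in these values was not tested.

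**Figure D2:**
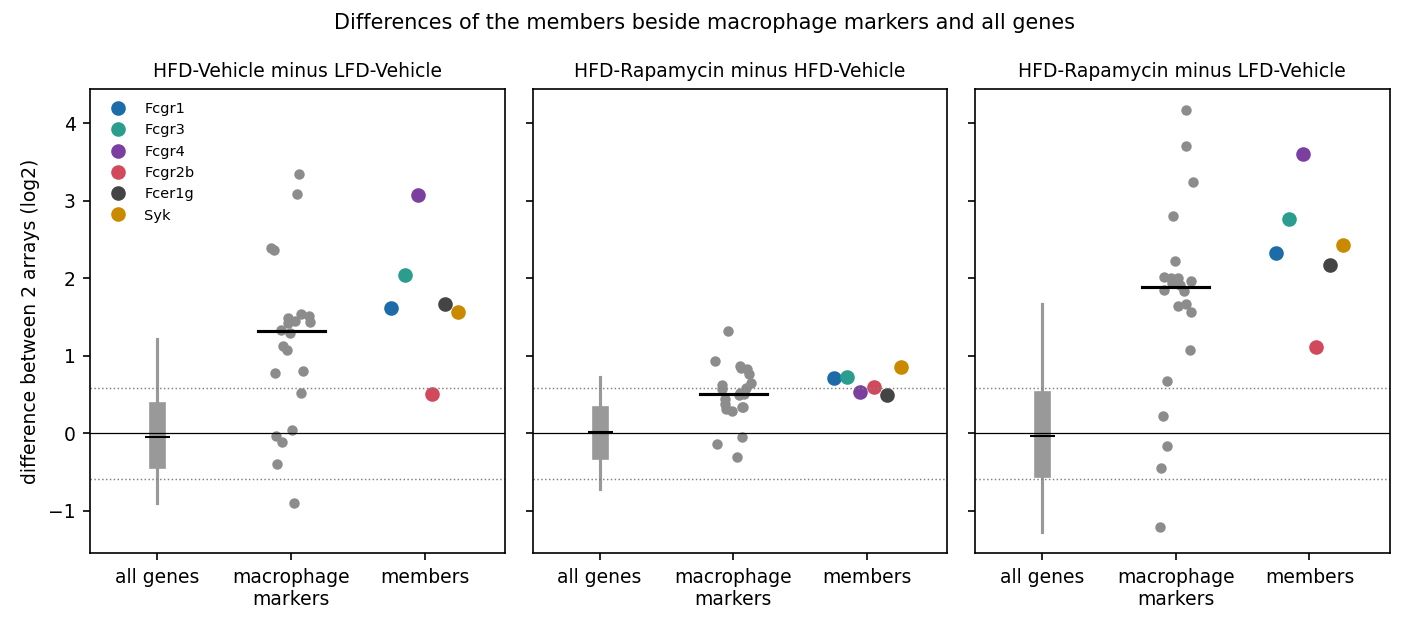
Log2 differences between 2 arrays (vertical axis) in 3 panels, 1 per comparison, for all 10603 genes (thick bar from percentile 25 to percentile 75, thin line from percentile 5 to percentile 95), for the 22 macrophage markers (grey points, bar at the median) and for the 6 genes (coloured points). Dotted lines mark 1.5-fold. In the first panel Fcgr4 (3.07) and Fcgr2b (0.51) lie far apart, and in the second the 6 genes lie together between 0.50 and 0.86.

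Markers of other cells that carry Fc receptors were followed in the same way. In what follows the diet comparison is HFD-Vehicle minus LFD-Vehicle and the rapamycin comparison HFD-Rapamycin minus HFD-Vehicle, and genes are counted at 1.5-fold. For all counts from here on, 15.1% of all genes were higher and 11.7% lower in the diet comparison. In the rapamycin comparison these shares were 8.55% and 7.56%. The diet counts of the monocyte and neutrophil markers and of the NK cell markers lay near these shares. Of 9 measured mast cell markers 6 were higher in HFD-Vehicle than in LFD-Vehicle (median 1.14) and 6 were higher in HFD-Rapamycin than in HFD-Vehicle (0.73), none lower in either. The counts for 12 monocyte and neutrophil markers were 2 higher and 1 lower in the diet comparison (median 0.14) and 7 higher in the rapamycin comparison, 6 when undetected values are taken at their bounds (0.77, or 0.46 at the bounds). For 5 NK cell markers they were 1 and 4, or 3 at the bounds (medians 0.25 and 0.70, the latter 0.64 at the bounds), with Ncr1 and Klrb1c not detected. For 7 B cell markers 3 were higher in the diet comparison, 2 at the bounds, and 1 lower (0.55, or 0.42 at the bounds). In the rapamycin comparison 5 of the 7 were higher, 4 at the bounds (0.71, or 0.6 at the bounds). Ms4a1 and Pax5 were not detected, and 5 of the 7 also stand in another list. Of 12 dendritic cell markers 7 were higher and 1 lower in the diet comparison (0.76) and 2 higher in the rapamycin comparison, 1 at the bounds (0.23). Markers of fat and vessel cells were lower in the rapamycin comparison, 6 of 11 for adipocytes (median -0.92) and 7 of 12 for endothelium (median -0.79), with none higher. In HFD-Vehicle minus LFD-Vehicle their medians were -0.20, with 4 adipocyte markers lower and 1 higher, and -0.17, with 1 endothelial marker each way. The part of these shifts in the values of the 6 genes was not tested.

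On the ligand side, most genes of the immunoglobulin constant regions had no named probe, and Ighg1 was not detected. Of the 5 measured immunoglobulin and plasma cell genes 1 was higher in the diet comparison (median 0.29) and 4 were higher in the rapamycin comparison (1.0). Mzb1, a chaperone of antibody-secreting cells, had log2 values of 7.53, 7.88 and 8.98. Pou2af1, a B cell coactivator, had 6.74, 7.02 and 8.03. For both, the larger step was that between the 2 high-fat diet arrays. Sdc1, a plasma cell surface proteoglycan, was at least 1.78-fold higher in the diet comparison and 2.16-fold higher in the rapamycin comparison. Of the pentraxins, which can also bind Fc gamma receptors, Ptx3 was at least 2.91-fold higher in HFD-Vehicle than in LFD-Vehicle and 1.02-fold higher in HFD-Rapamycin than in HFD-Vehicle, while Crp and Apcs were not detected.

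Fc receptors outside the gamma family did not move as a block. Of 7 measured, 3 were higher and 1 lower in the diet comparison (median -0.05) and 4 were higher in the rapamycin comparison (0.60). Fcgrt, the neonatal receptor that recycles IgG, was level on the 3 arrays (13.20, 13.09 and 13.05). Fcer1a, the IgE-binding chain that pairs with Fcer1g on mast cells, had 7.22, 8.82 and 10.05. Its rapamycin difference of 1.24 (2.36-fold) was larger than that of any of the 6 genes. In the diet comparison its 1.60 was about the same as the values of Fcgr1 (1.62) and Fcer1g (1.67).

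Next to Fcer1g, the sister adaptor Tyrobp (DAP12), which serves TREM2 and other myeloid receptors, was 6.21-fold higher in HFD-Vehicle than in LFD-Vehicle and 1.93-fold higher in HFD-Rapamycin than in HFD-Vehicle (log2 values 8.88, 11.51 and 12.46). Its differences, 2.63 and 0.95, both exceeded those of Fcer1g, 1.67 and 0.50. Of the 5 measured ITAM adaptors other than Fcer1g and related chains, 3 were higher in the diet comparison (median 0.72) and 4 in the rapamycin comparison (0.95), none lower. The rapamycin values of Cd3e (0.97) and Cd79b (1.06), chains of the T cell and B cell receptors, were of the same size as that of Tyrobp, while their diet values were -0.11 and 0.72.

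Upstream of Syk, 5 of 11 Src family kinases and their regulators were measured, and 3 were higher in the diet comparison (median 0.82) and 1 in the rapamycin comparison (0.18). That one was Blk, a B cell kinase (6.17, 6.43 and 7.68). Lyn, a Src family kinase of macrophages and B cells, had no named probe, and Fgr was not detected. Downstream, 17 of 24 measured Syk substrates and proximal signalling genes were higher in the diet comparison, 16 at the bounds, and 1 was lower (median 0.85), and 11 were higher in the rapamycin comparison, none lower (0.50). Lat2, an adaptor of myeloid and mast cells phosphorylated after Fc receptor ligation, had 8.27, 11.21 and 12.18. Plcg2, the phospholipase that Syk activates, had 7.93, 8.74 and 9.68. In the rapamycin comparison Syk itself had a larger difference than 21 of the 24.

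On the inhibitory side, Fcgr2b differed from its partners. Of 11 measured inhibitory phosphatases and adaptors 8 were higher in the diet comparison, 7 at the bounds (median 0.75), and 4 in the rapamycin comparison (0.47), none lower. Inpp5d, the SHIP-1 phosphatase that Fcgr2b recruits, had 6.93, 8.13 and 8.92, with a diet difference of 1.20 against 0.51 for Fcgr2b. Ptpn6, the SHP-1 phosphatase, had 7.87, 9.41 and 10.20. A further list held 14 measured genes grouped as inhibitory receptors of myeloid cells, and that each carries an ITIM was not checked. Of these 14, 10 were higher in the diet comparison, 9 at the bounds (median 1.53, or 1.18 at the bounds), none lower. By nominal values 11 of the 14 had a larger diet difference than Fcgr2b. Some of the 11 had no detected lean signal, and not all of these exceed Fcgr2b at their bounds. Among the 14, Lilrb4a was 9.11-fold (6.71, 9.90 and 10.93) and Cd72 10.2-fold higher (6.08, 9.43 and 10.31). For rapamycin 6 were higher and 1 lower (0.56), and 6 of the 14 exceeded Fcgr2b. The small diet difference of Fcgr2b was thus not shared by most of the 14 listed genes.

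**Figure D3:**
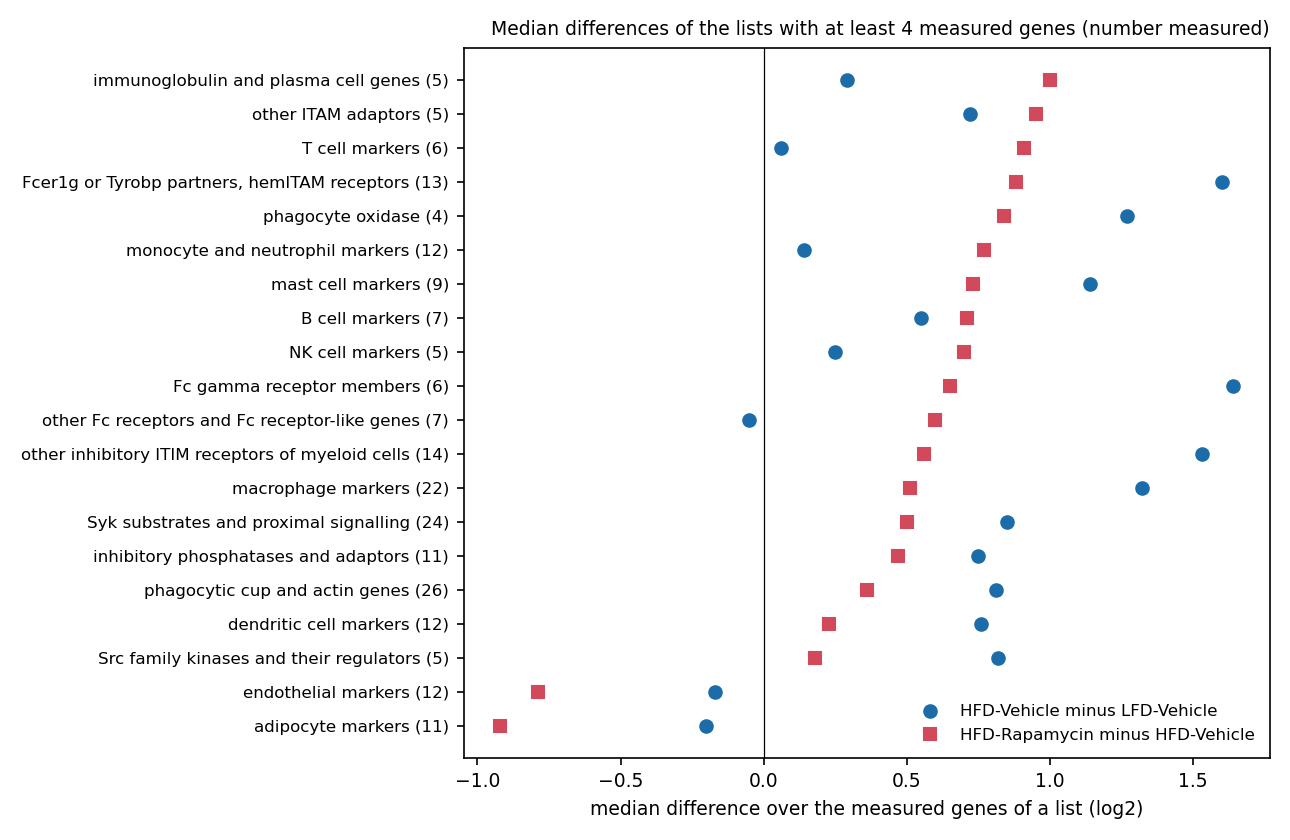
Median log2 difference (horizontal axis) over the measured genes of each list with at least 4 of them (number in brackets), for HFD-Vehicle minus LFD-Vehicle (blue circles) and HFD-Rapamycin minus HFD-Vehicle (red squares). The 6 genes have one of the high diet medians (1.64) and a rapamycin median (0.65) in the middle of the lists, while adipocyte (-0.92) and endothelial markers (-0.79) lie on the left.

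The genes whose pair of differences lay nearest to that of each member other than Syk were found among 9335 genes detected on all 3 arrays, by the Euclidean distance of their log2 differences from LFD-Vehicle. This is a description over 3 arrays and says nothing of shared control. Fcgr4 had few neighbours, only 3 genes within 0.25, led by Mpeg1, the macrophage pore-forming protein perforin-2 (8.87, 11.96 and 12.58, distance 0.108), Evl and Egr2, followed by Cd84 and Tk1. Fcgr3 had 17 within 0.25, led by Snx5, Tgif1, the late endosomal GTPase gene Rab7b, the lectin Clec4b1 and Uhrf1. For Fcgr1 there were 58, with the chemokine Ccl6 first (distance 0.018), then Plk2, the acute-phase gene Saa3, the mast cell protease Cpa3 and Dbf4. For Fcer1g there were 55, with St8sia4, the complement receptor Vsig4, the Tec kinase Btk, 6330509M05Rik and Rgs10 in front. Fcgr2b had the most, 217, led by Hsph1, Igf2r, Gsdmd, Plscr1 and Bola2, none of them an Fc receptor. Among these 5 members Fcgr1 and Fcer1g were nearest to each other (0.17) and Fcgr2b and Fcgr4 farthest apart (3.58). Distances of Syk are not given, since its value on the LFD-Vehicle array was not detected.

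The effect of the processing on the 6 genes was followed under 10 alternative settings and 1 more chosen after the data had been seen. In the diet comparison Fcgr4 stayed between 2.56 and 3.28, Fcgr3 between 1.87 and 2.25, Fcer1g between 1.57 and 1.82, Fcgr2b between 0.42 and 0.70 and Syk between 0.64 and 1.71. In the rapamycin comparison Fcgr3 stayed between 0.60 and 0.73, Fcgr1 between 0.57 and 0.71, Fcgr2b between 0.46 and 0.60, Fcgr4 between 0.43 and 0.55, Fcer1g between 0.49 and 0.62 and Syk between 0.53 and 0.87. Fcgr2b kept the smallest diet difference of the 6 under each alternative that measured it beside the others.

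**Figure D4:**
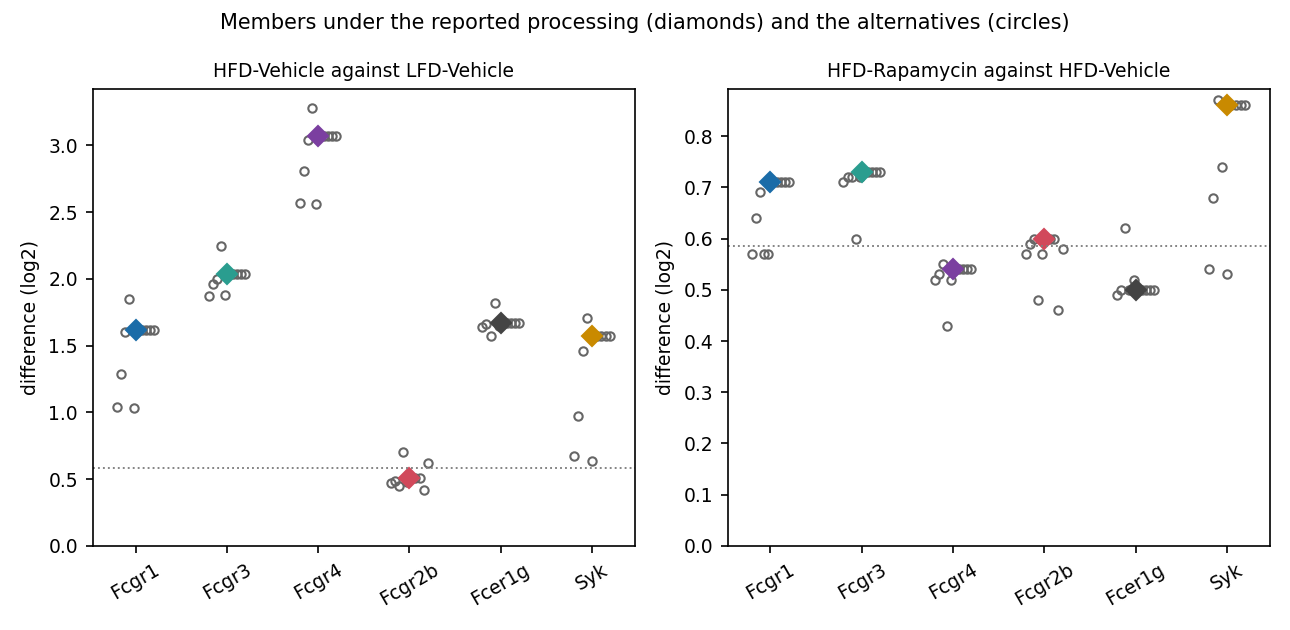
Log2 difference of each gene (vertical axis) under the reported processing (diamonds) and each alternative (open circles), for HFD-Vehicle against LFD-Vehicle (left) and HFD-Rapamycin against HFD-Vehicle (right). Dotted lines mark 1.5-fold. The dim probes of Fcgr1 (down to 1.03) and Syk (down to 0.64) spread most on the left, and on the right Fcgr3 stays above the line (from 0.60), Fcgr4 below it (up to 0.55) and the other genes have values on both sides.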

How the data were processed

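Biotin-labelled RNA of VWAT was hybridized to 3 Illumina mouse bead arrays, 1 per group. The authors deposited a signal intensity per probe, exported from GenomeStudio (named in the submitters' processing notes) and not normalized, and beside it a detection p-value against negative controls. The authors also deposited processed intensities, whose normalization method is not stated. The study's methods name GeneSpring GX for the analysis.

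From the raw intensities, limma 3.58.1 in R 4.3.3 corrected background inferred from the detection p-values (offset 16), quantile normalized and took log2. A probe was kept if its detection p was below 0.01 on any of the 3 arrays (18954 probes), and each gene was read from its brightest kept probe. Of the probes, 34885 had 1 gene in the platform annotation, 18 several (not named) and 10378 are unnamed here. Where the dimmer array did not detect a gene, its fold is a lower bound under this background correction, computed against the lowest signal detected there or the probe's own if higher. Counts and medians came from Python 3.11.15 with numpy 2.4.6 and pandas 2.3.3, and figures from matplotlib 3.10.9. Precision is limited by the number of arrays, and with 1 per group no test was run. The steps were tested on simulated data, with changes larger than 1.5-fold set into bright probes only. That test does not cover changes near 1.5-fold or dim probes.

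The genes and the 22 lists (282 genes, 205 measured) were chosen with earlier results of these data known. Named genes are the 6 members with all probes, up to 4 measured genes per list with the largest absolute difference between HFD-Rapamycin and HFD-Vehicle, and the 5 nearest genes of each member (for Syk left out, as its LFD-Vehicle signal was not detected); Fcgrt, Adgre1, Cd163, Mpeg1 and Spi1 were added after their values had been seen, as were genes named as not detected or without a probe. Promoter windows came from RefSeq and matched all 6 genes.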

Additional observations from a re-analysis of the deposited data

How the results depend on the processing

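The direction of all 6 genes in all 3 comparisons was kept under the 10 alternative settings and a further one chosen after seeing the data (the second detected Fcgr2b probe), and no value reversed. For genes with 1 probe, only the settings that change background correction or normalization could have reversed a value. The number of the 6 genes at least 1.5-fold higher in HFD-Rapamycin than in HFD-Vehicle was 4 as reported, beside 8.55% of all genes. It was 1 without background correction (4.23% of all genes), 1 with the authors' processed values (4.27%) and 2 with median scaling (5.99%). At a 2-fold threshold it was 0 (1.56%). It was 5 with a shift to the 75th percentile (9.43%) and 3 with the second Fcgr2b probe (8.54%) or the mean of the kept probes (8.01%). With genes detected on all 3 arrays, which leaves Syk out, it was also 3 (7.16%). The share of all genes thus moved with the processing too. Of the values of single genes under alternatives, 18 moved by more than the spread between probes and 159 did not. Many of the 159 could not move. The detection filters leave the value of a kept gene as it is, and the choice of probe can change only Fcgr2b. The 18 belong to Fcgr1, Fcgr4 and Syk, and came without background correction, with an offset of 50 or with the authors' processed values. Leaving the background in, or a larger offset, compresses dim signals by construction. The activating receptors exceeded Fcgr2b by 1.4 to 1.62 at their median for HFD-Vehicle against LFD-Vehicle, and by 0.0 to 0.25 for HFD-Rapamycin against HFD-Vehicle. The first of these medians is the value of Fcgr3, so its range does not show how far the gap of Fcgr1 moved. The 6 genes exceeded the macrophage marker median by 0.30 to 0.40 and by 0.08 to 0.14 at their median.

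No paired analysis was possible because each group has 1 array, and no replicate was left out for the same reason. On the LFD-Vehicle array Syk was not detected and Fcgr1 was dim (log2 6.32), which limits the precision of their folds.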

Other observations

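Beyond the Fc gamma receptors, other receptors that signal through Fcer1g, Tyrobp or their own half-ITAM to Syk were measured for 13 of 20 listed genes. Fcer1a, the IgE-binding chain, is one of the 13 and was also counted with the other Fc receptors above. Its differences were 1.60 between the diets and 1.24 for rapamycin. For HFD-Vehicle against LFD-Vehicle 9 were at least 1.5-fold higher, 8 at the bounds, and 1 was lower (median 1.60, or 1.0 at the bounds), and for HFD-Rapamycin against HFD-Vehicle 9 were higher and none lower (0.88). The C-type lectin Clec4d, which pairs with Fcer1g, had normalized log2 values of 5.63, 9.06 and 10.90 on the LFD-Vehicle, HFD-Vehicle and HFD-Rapamycin arrays, a 10.8-fold and a further 3.60-fold difference. Clec4n (Dectin-2), which also needs Fcer1g, had 6.33, 6.76 and 8.11, so most of its difference lay between the 2 high-fat diet arrays (2.56-fold). Cd300c2 was at least 2.10-fold higher in HFD-Vehicle than in LFD-Vehicle and a further 2.14-fold higher in HFD-Rapamycin. The rapamycin differences of Clec4d (1.85), Clec4n (1.36) and Cd300c2 (1.09) were each larger than that of Syk (0.86), the largest among the Fc gamma receptor genes.

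Genes of the response that these receptors start were measured too. In HFD-Vehicle against LFD-Vehicle, called the diet comparison, 16 of 26 phagocytic cup and actin genes were higher and 1 lower (none lower at the bounds, median 0.81), and in HFD-Rapamycin against HFD-Vehicle, the rapamycin comparison, 9 were higher and 1 lower (0.36). Rac2, a small GTPase of leukocytes, had 7.59, 8.63 and 9.44, Was, an activator of actin branching, 8.01, 9.18 and 9.99, and the myosin gene Myo1f 8.07, 10.36 and 11.17. The lower one was Gsn, an actin-severing protein that fat and stromal cells also make, with 10.66, 10.50 and 8.95. Of the phagocyte oxidase 4 genes were measured, and all 4 were higher in both steps (medians 1.27 and 0.84), Cyba with 10.21, 11.78 and 12.60 and Ncf4 with 8.0, 9.27 and 10.17, while Cybb, the catalytic subunit, was not detected. Among 6 T cell markers none passed 1.5-fold in the diet comparison (median 0.06) and 5 were higher in the rapamycin comparison (0.91), Cd3d with 6.34, 6.76 and 7.85.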
